A study of Mus musculus with 6 samples.

Results

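The genes described here encode 9 lysosomal enzymes that break down glycosaminoglycans, long sugar chains that are mostly sulfated and carried by proteoglycans. They were chosen by function: each is an enzyme whose inherited loss causes a mucopolysaccharidosis, a disease in which undegraded glycosaminoglycans collect in lysosomes. The 9 genes are Sgsh, Naglu, Hgsnat, Ids, Idua, Gusb, Arsb, Galns and Hyal1. All 9 were among the 24421 genes of the deposited expression table, and 8 of them were among the 11671 genes whose level was high enough to be tested. RNA was sequenced from immortalized cultured mouse proximal tubular epithelial cells (PTECs), the kidney cells that take up filtered protein. The cells were wild-type and received either BSA alone (BSA-treated PTECs, 3 libraries) or BSA carrying palmitic acid (PA-treated PTECs, 3 libraries) for 6 hours. BSA, bovine serum albumin, was thus present in both groups, and PA was the only labelled difference between them.

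Glycosaminoglycans reach the lysosome by endocytosis and autophagy and are taken apart mainly from the ends of their chains. Most of the enzymes remove 1 kind of sugar or sulfate group before the next can act. Heparan sulfate, dermatan sulfate, chondroitin sulfate, keratan sulfate and hyaluronan each need their own subset of these enzymes, and some enzymes serve several of them. The sulfatases among them are active only after a cysteine in their active site has been converted to formylglycine. Most of the soluble enzymes are carried to the lysosome by mannose 6-phosphate receptors. Many lysosomal enzyme genes carry near their start a sequence named CLEAR, which is recognised by TFEB and related factors.

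The deposited values were read numbers normalised to gene length and library size (RPKM), so that levels can be compared between genes. The library sizes behind them were 17679817 to 21568228 reads. The labels do not say whether replicates were separate cultures, so p-values measure the spread between these libraries, which may be technical. The cells had Krt8 at 489 RPKM and Pax8 at 56.8 RPKM in BSA-treated PTECs. The proximal tubule markers Aqp1, Lrp2 and Cubn were tested, at 7.75, 7.11 and 1.01 RPKM with BSA. However, 5 of 13 tubular markers were below the minimum level for testing, among them the proximal tubule transporter genes Slc34a1, Slc5a2 and Slc22a6. Summed over the 13 tubular markers, RPKM was 915 to 934 in the BSA libraries and 766 to 784 in the PA libraries, and 3 markers, Krt8 and Krt18 among them, were called lower with PA. The 7 fibroblast markers summed to 2.31 to 2.62 RPKM with BSA and 1.4 to 2.02 with PA, the 6 endothelial markers to 4.24 to 4.58 and 4.66 to 5.31, and the 8 immune markers to 11.3 to 14.8 and 12.2 to 15. Only 2 of the 7 fibroblast, 1 of the 6 endothelial and 3 of the 8 immune markers were tested, and none was called. Flt1, the tested endothelial marker, was at 4.34 RPKM with BSA. The tested immune markers Cd14, Csf1r and Cd68 were at 7.31, 3.12 and 3.02 RPKM with BSA. The endothelial marker Emcn and the immune marker Lyz2 were listed at 0. The 8 markers of other nephron segments summed to 18.5 to 19.2 RPKM with BSA and 20.9 to 22.4 with PA, nearly all of it Podxl, which was called higher. The part of these differences in the results below was not tested.

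The question put to the 9 genes was whether their transcripts changed when PTECs were given PA. Naglu and Gusb were higher in PA-treated PTECs, by 1.42-fold and 1.22-fold, and Hgsnat was lower, by 1.16-fold. The other 5 tested genes, Sgsh, Ids, Idua, Arsb and Galns, did not pass the test, and Hyal1 was too low to be tested. A gene was called when its adjusted p was under 0.05 by limma (Benjamini-Hochberg over all 11671 genes tested). By this rule 2 of 8 enzymes were called higher, beside 11.2% of all genes tested, and 1 of 8 was called lower, beside 9.52%. In either direction 3 of 8 were called, beside 20.7% of all genes. With an added minimum of 0.4 for the absolute log2 fold change, 1 of 8 (Naglu) was called, beside 6.29%. The 3 PA libraries all lay above the 3 BSA libraries in 4 of 8 (Sgsh, Naglu, Gusb and Arsb), beside 18.2% of all genes, and all below them in 2 of 8 (Hgsnat and Ids), beside 22.3%. The median log2 fold change of the 8 was 0.07, and that of all genes tested was -0.04. In bulk RNA, fewer cells expressing a gene and less RNA per cell cannot be told apart.

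**Figure D1:**
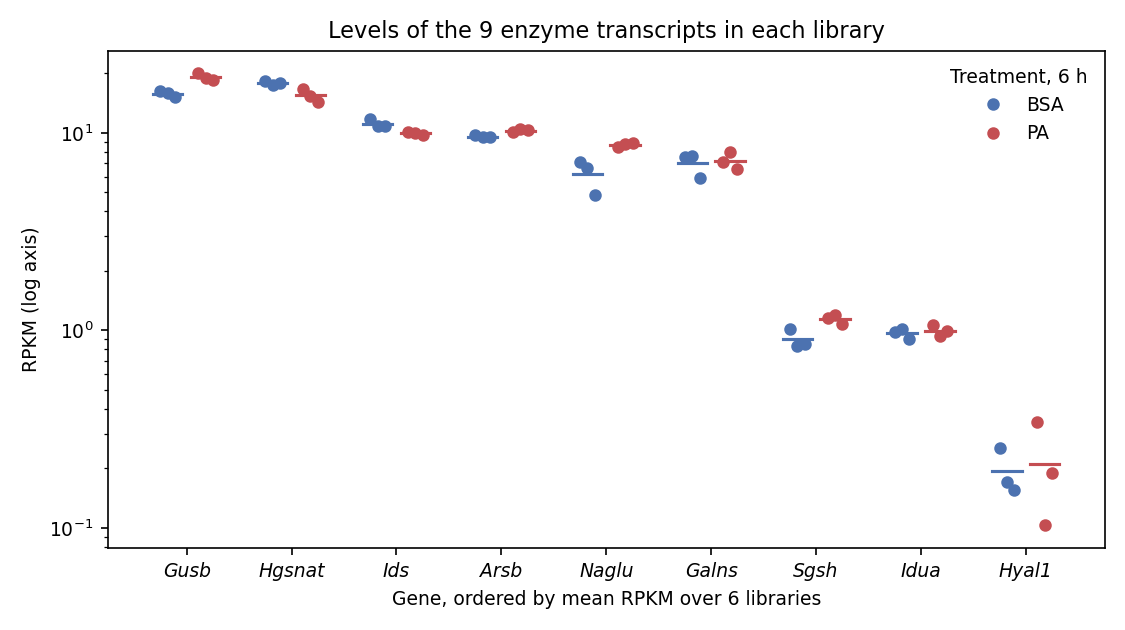
Levels of the 9 enzyme transcripts, in RPKM on a log axis, in each BSA library (blue points) and PA library (red points), with horizontal bars for the mean of 3 libraries. Gusb and Naglu sit higher in every PA library, Hgsnat sits lower, and Hyal1 lies below 0.5 RPKM in all 6 libraries.

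Sgsh, Naglu and Hgsnat act on heparan sulfate alone, and their loss causes forms of Sanfilippo syndrome. Of these, Naglu rose, Hgsnat fell, and Sgsh did not pass the test. Naglu encodes the glucosaminidase that removes N-acetylglucosamine from the chain end, and it lies at chr11:101070012-101077672 on the plus strand (GENCODE vM21, GRCm38). Its level was 7.1, 6.63 and 4.86 RPKM in BSA replicates 1 to 3, from 213 to 354 reads per library. It was 8.44, 8.82 and 8.85 RPKM in PA replicates 1 to 3, from 390 to 426 reads. The groups did not overlap, and the PA libraries lay close together while BSA replicate 3 was below the other BSA libraries. The mean was 6.2 ± 1.18 RPKM (SD, n = 3) with BSA and 8.7 ± 0.228 RPKM (SD, n = 3) with PA. On the log2(RPKM + 0.1) scale the difference was 0.50 (SE 0.13, 95% interval 0.20 to 0.80), and limma's adjusted p was 0.0301. Leaving out BSA replicate 3 reduced the difference to 0.34 with an adjusted p of 0.00618, whereas leaving out BSA replicate 2 or any PA library ended the call (adjusted p of 0.054 to 0.095). Naglu has an exonic GC content of 59.8%, and in BSA replicate 3 it was 0.49 lower (log2) than in the other BSA libraries. Among 993 genes within 2 percentage points of that GC content the median of the same quantity was -0.15, and once the GC trend of each library was removed Naglu was higher by 0.52 with an adjusted p of 0.00626.

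Sgsh encodes the sulfamidase that removes the sulfate from glucosamine nitrogen, and it lies at chr11:119343425-119355536 on the minus strand. Its level was low, at 1.02, 0.836 and 0.85 RPKM in the BSA libraries, from 65 to 88 reads. In the PA libraries it was 1.16, 1.19 and 1.07 RPKM, from 90 to 101 reads. All PA libraries lay above all BSA libraries, but the gap was narrow. The means were 0.901 ± 0.1 and 1.14 ± 0.0625 RPKM (SD, n = 3 each), a log2 difference of 0.31 (SE 0.15, 95% interval -0.04 to 0.66) with an adjusted p of 0.177 by limma. In folds that interval runs from 0.976 to 1.58. Slc26a11, an anion transporter gene, starts 21 bases away on the opposite strand. It rose from 1.64 ± 0.121 to 2.37 ± 0.328 RPKM (SD, n = 3 each), a log2 difference of 0.50 (SE 0.13, limma adjusted p = 0.0298), although leaving out 1 library ended this call for 5 of 6 libraries (adjusted p of up to 0.103). Card14, on the opposite strand, overlaps exons of Sgsh, at 0.129 to 0.303 RPKM. The libraries were made with a stranded kit, but how strand was treated in counting is not stated, so reads of Sgsh and of Card14 may not be fully separated.

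Hgsnat encodes the membrane enzyme that acetylates the terminal glucosamine with acetyl-coenzyme A, the step that makes the substrate for Naglu. It lies at chr8:25944453-25976753 on the minus strand. Its level was 18.3, 17.4 and 17.8 RPKM in the BSA libraries. In the PA libraries it was 16.7, 15.3 and 14.4 RPKM. Every PA library lay below every BSA library, with 732 to 1008 reads behind each value. The mean fell from 17.9 ± 0.431 to 15.5 ± 1.18 RPKM (SD, n = 3 each), a log2 difference of -0.21 (SE 0.06, 95% interval -0.35 to -0.07, limma adjusted p = 0.0421). The call ended when any library other than PA replicate 1 was left out (adjusted p of 0.0545 to 0.126), while the difference stayed between -0.27 and -0.16. Hgsnat and Naglu, which act one after the other on the same sugar, moved in opposite directions.

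Promoter sequences from RefSeq (GRCm38.p6, 300 bases around the start of each gene, most of them upstream) matched 7 of the 9 genes. Hgsnat and Galns had no entry. The search was for CACGTG, the core bound by TFEB and many other factors, and for its extended form GTCACGTG, which contains it, on both strands. GTCACGTG was found in 2.25% and CACGTG in 7.15% of the 32851 promoters in the table. Counted by gene, with any promoter of a gene sufficing, the shares were 2.55% and 8.09% of 27025 genes. Among the 7 enzymes, Naglu and Sgsh held GTCACGTG, and Idua, Gusb, Hyal1, Arsb and Ids held neither form. Both windows are shown because these are the heparan sulfate genes described above, with GTCACGTG in capitals, 5′ to 3′ on the plus strand. The Naglu window is chr11:101070008-101070037 and the Sgsh window is chr11:119355521-119355550.
Naglu: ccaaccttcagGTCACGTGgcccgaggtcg
Sgsh: cgctccccacgGTCACGTGcacggcaggcc
The motif begins 75 bases before the RefSeq start of Naglu, and the window spans the GENCODE start of the gene. In Sgsh it begins 29 bases before the RefSeq start, and the window lies before the start of Slc26a11 at position 119355557. A match is a description of the letters and not of binding. Gusb, which rose, held no match in this window, and Sgsh, which held one, did not pass the test.

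Ids, Idua and Gusb act on both heparan sulfate and dermatan sulfate. Gusb rose, whereas Ids and Idua did not pass the test. Gusb encodes beta-glucuronidase, which removes glucuronic acid and is lost in Sly syndrome. It lies at chr5:129989011-130003049 on the minus strand. Its level was 16.2, 15.9 and 15.1 RPKM in the BSA libraries and 20, 19 and 18.5 RPKM in the PA libraries, with 654 to 990 reads behind each value. The groups were well apart relative to the spread within each. The mean rose from 15.7 ± 0.598 to 19.1 ± 0.761 RPKM (SD, n = 3 each), a log2 difference of 0.28 (SE 0.05, 95% interval 0.17 to 0.39, limma adjusted p = 0.006). Gusb was the only gene of the 8 called under all 16 alternative fits, each library left out in turn included.

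Ids encodes iduronate sulfatase, the enzyme of Hunter syndrome, which removes a sulfate from iduronic acid. It is the X-linked gene of the group, at chrX:70343069-70365084 on the minus strand. Its level was 11.8, 10.8 and 10.8 RPKM in the BSA libraries and 10.1, 9.97 and 9.73 RPKM in the PA libraries. All PA libraries lay below all BSA libraries, and the means were 11.1 ± 0.599 and 9.95 ± 0.205 RPKM (SD, n = 3 each). The log2 difference was -0.16 (SE 0.05, 95% interval -0.28 to -0.04), and it did not pass the test (limma adjusted p = 0.0713). Ids was called lower when the log2 values were quantile normalized (adjusted p = 0.043) and when limma voom was run on recovered reads (adjusted p = 0.0399). Idua encodes alpha-iduronidase, the enzyme of Hurler syndrome, which cuts off the iduronic acid that Ids has freed of sulfate. It lies at chr5:108660331-108684557 on the plus strand. Its level was 0.981, 1.02 and 0.907 RPKM with BSA and 1.06, 0.936 and 0.987 RPKM with PA, from 71 to 97 reads per library. The groups overlapped, and the log2 difference was 0.04 (SE 0.14, limma adjusted p = 0.882). Its interval in folds, 0.812 to 1.29, covers changes as large as that of Gusb, so a difference of that size is not excluded by these libraries. Dgkq, on the opposite strand, overlaps Idua and was more abundant, at 4.79 ± 0.121 RPKM with BSA and 4.38 ± 0.441 RPKM with PA (SD, n = 3 each). Its log2 difference was -0.13 (limma adjusted p = 0.291), and without the strand setting of the counting, reads of Dgkq and Idua may not be fully separated.

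Arsb, Galns and Hyal1 take part in the breakdown of chondroitin, dermatan and keratan sulfates and of hyaluronan, and neither Arsb nor Galns was called, while Hyal1 could not be tested. Arsb encodes arylsulfatase B, which removes sulfate from galactosamine and is lost in Maroteaux-Lamy syndrome. It lies at chr13:93771630-93943016 on the plus strand. Its level was 9.74, 9.52 and 9.47 RPKM in the BSA libraries and 10.1, 10.4 and 10.3 RPKM in the PA libraries, with 668 to 819 reads behind each value. The groups did not overlap, and both were tight: 9.58 ± 0.143 and 10.3 ± 0.154 RPKM (SD, n = 3 each). The log2 difference of 0.10 (SE 0.04, 95% interval 0.00 to 0.20) did not pass the test (limma adjusted p = 0.139). Galns encodes the galactosamine sulfatase of Morquio syndrome, which acts on keratan and chondroitin sulfates, and lies at chr8:122578242-122611463 on the minus strand. Its level was 7.53, 7.64 and 5.93 RPKM with BSA and 7.14, 7.99 and 6.56 RPKM with PA. The groups overlapped, and BSA replicate 3 was again the lowest library, 0.35 (log2) below the other BSA libraries, beside a median of -0.10 for genes of like GC content. The log2 difference was 0.04 (SE 0.11, 95% interval -0.22 to 0.31, limma adjusted p = 0.804), and without BSA replicate 3 it was -0.07. Trappc2l, a trafficking gene that starts 177 bases from Galns, was at 22.9 RPKM with BSA and 26 RPKM with PA (log2 difference 0.18, limma adjusted p = 0.101).

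Hyal1 encodes a hyaluronidase that cuts hyaluronan inside the chain, and lies at chr9:107576927-107581710 on the plus strand. It was the least abundant of the 9 transcripts, at 0.253, 0.171 and 0.156 RPKM with BSA and 0.342, 0.103 and 0.189 RPKM with PA. These values rest on 4 to 15 reads per library, and the groups overlapped. Hyal1 was below the minimum mean of 0.5 RPKM and was left out of the test. When no minimum was set, its log2 difference was 0.03 (SE 0.31) with an interval in folds of 0.612 to 1.7 and an adjusted p of 0.986 by limma. Hyal3 and Naa80 overlap Hyal1, and Naa80, listed under its older symbol Nat6, was at 4.79 RPKM with BSA and 4.4 RPKM with PA.

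The levels of the 9 transcripts spanned a wide range. Gusb and Hgsnat were the highest, and their order turned with treatment: Hgsnat was above Gusb in all 3 BSA libraries and Gusb above Hgsnat in all 3 PA libraries. Hgsnat stood clear of Ids, with a lowest value of 14.4 RPKM against a highest of 11.8. Ids and Arsb overlapped, and Arsb stood above Naglu, with 9.47 against 8.85 RPKM at the nearest. Naglu and Galns overlapped. Galns, at 5.93 RPKM or more, stood well above Sgsh, at 1.19 RPKM or less. Sgsh and Idua overlapped, and both exceeded Hyal1 in every library. Summed over the 9 genes, RPKM was 73, 69.9 and 65.8 in the BSA libraries and 75.1, 73.7 and 70.5 in the PA libraries, so that the totals overlapped. Within that sum the shares moved with treatment. Gusb made up 22.6% ± 0.33 of it with BSA and 26.2% ± 0.424 with PA (SD, n = 3 each). Hgsnat made up 25.7% ± 1.2 with BSA and 21.1% ± 1 with PA (SD, n = 3 each). Naglu went from 8.87% ± 1.28 to 11.9% ± 0.651 and Ids from 16% ± 0.488 to 13.6% ± 0.162 (SD, n = 3 each). These shares follow from the levels given above and were not tested.

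A list of 19 genes, the other-breakdown list, was set beside the 9 enzymes, and 15 of the 19 were tested. It joins other genes of glycosaminoglycan breakdown with genes linked to it, among them Arsa, Ctsa, Neu1, Sumf1 and Vps33a. Its counts are thus not those of glycosaminoglycan breakdown alone. The 9 chosen genes were not a complete set of mucopolysaccharidosis enzymes, so the lists do not divide the genes by disease. In this list 9 of 15 (60%) were called higher with PA, beside 11.2% of all genes tested. Called lower was 1 of 15 (6.67%), beside 9.52% of all genes. The median log2 fold change was 0.26. All PA libraries lay above all BSA libraries in 9 of 15, beside 18.2% of all genes. The genes called higher included Hexa, Glb1, Ctsa, Neu1, Arsa, Sumf1 and Vps33a. Hexa encodes a subunit of beta-hexosaminidase, which also degrades gangliosides. Hexa rose from 7.12 ± 0.982 to 14.1 ± 0.474 RPKM (SD, n = 3 each), by 1.97-fold (limma adjusted p = 0.00042).

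Glb1 encodes beta-galactosidase, and Ctsa and Neu1 encode the protective protein and the sialidase that form a complex with it. Ctsa rose 1.72-fold, from 24.3 to 41.7 RPKM (limma adjusted p = 0.00023), and Neu1 rose 1.7-fold, from 10.4 to 17.8 RPKM (limma adjusted p = 0.00014). Glb1 rose 1.24-fold, from 10.4 to 13 RPKM (limma adjusted p = 0.025), a call that ended without PA replicate 1 (adjusted p = 0.0776), without PA replicate 2 (0.0933) or with no variance trend (0.054). Arsa, the sulfatase of sulfatide and a relative of Arsb, rose 1.66-fold, from 6.44 to 10.7 RPKM (limma adjusted p = 0.0005). Arsa thus differed by 0.73 on the log2 scale and Arsb by 0.10, and the difference between the genes was not tested. Sumf1, which makes the formylglycine that all of these sulfatases need, rose 1.2-fold, from 11 to 13.2 RPKM (limma adjusted p = 0.0135, and 0.0548 without BSA replicate 2). Its paralog Sumf2 was at 16.5 and 17.1 RPKM and did not pass the test (limma adjusted p = 0.444). Vps33a, a subunit of the complexes that tether endosomes and lysosomes for fusion, rose 1.19-fold, from 22.3 to 26.7 RPKM (limma adjusted p = 0.00157).

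Tmem2 was the gene of this list called lower, and 5 others did not pass the test. Tmem2, a cell surface hyaluronidase, fell from 5.76 ± 0.371 to 4.67 ± 0.105 RPKM (SD, n = 3 each), by 1.23-fold (limma adjusted p = 0.0194). That call ended when BSA replicate 1, BSA replicate 2, PA replicate 2 or PA replicate 3 was left out (adjusted p of up to 0.075). Hyal2, a membrane-bound hyaluronidase, was at 22.5 and 21.8 RPKM (limma adjusted p = 0.547). Hpse, which encodes heparanase, an enzyme that cuts heparan sulfate inside the chain, was at 3.54 and 3.19 RPKM (limma adjusted p = 0.4). Sulf2, an extracellular sulfatase of heparan sulfate, and Arsk, a lysosomal sulfatase of uronic acids, had log2 differences of -0.22 and 0.09 (limma adjusted p of 0.476 and 0.584). Arsg, Hyal3, Cemip and Sulf1 were below the minimum level, and of these Cemip, which takes part in hyaluronan breakdown, was at 0.351, 0.385 and 0.374 RPKM with BSA and 0.689, 0.472 and 0.629 RPKM with PA.

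**Figure D2:**
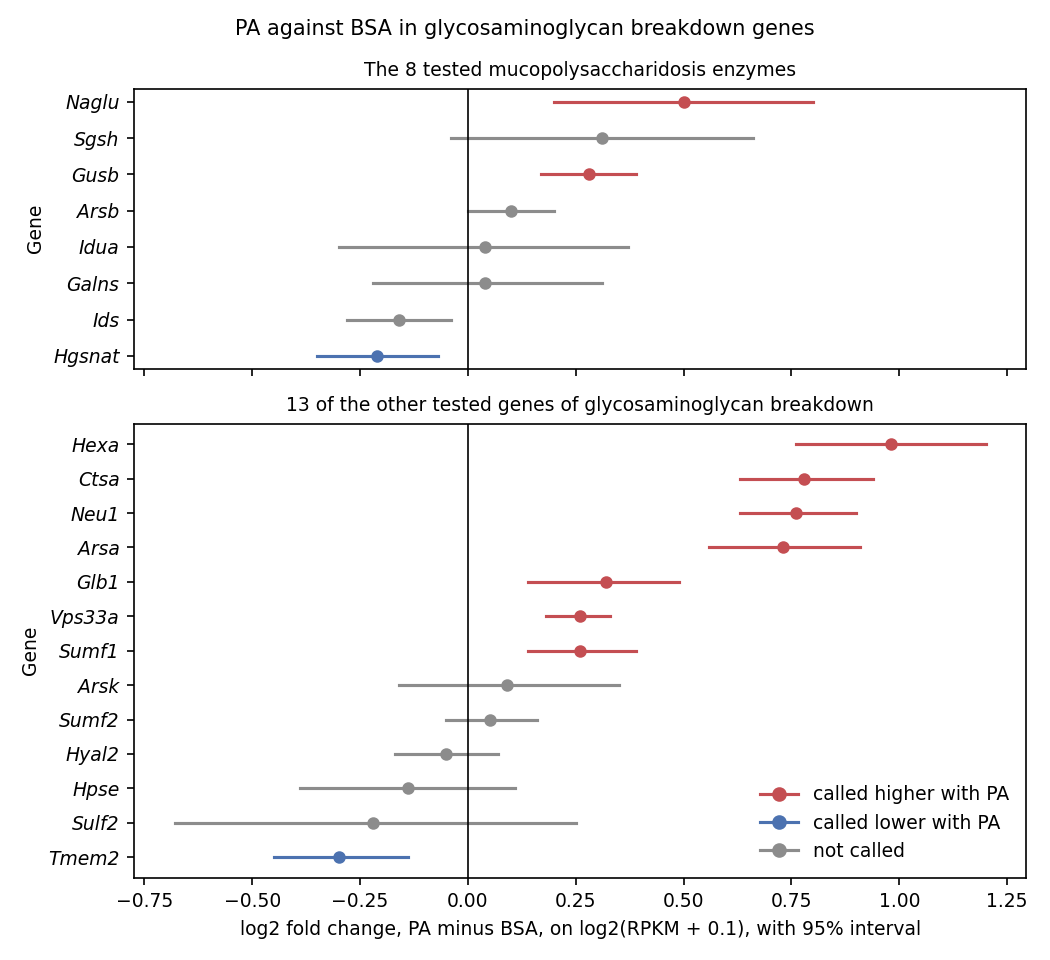
Log2 fold change, PA minus BSA, on the log2(RPKM + 0.1) scale, for the 8 tested mucopolysaccharidosis enzymes (upper panel) and 13 of the other tested genes of glycosaminoglycan breakdown (lower panel). Points are estimates over 3 libraries per group, lines are 95% intervals, and colors mark genes called higher (red), called lower (blue) or not called (grey). The chosen enzymes run from -0.21 to 0.50, and the genes of the lower panel from -0.30 to 0.98.

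The promoter search described above found GTCACGTG in 5 of the 15 list genes with a RefSeq promoter: Ctsa, Vps33a, Sumf1, Glb1 and Arsa, all of which were called higher. Hexa and Neu1, which held no match, were called higher too, so the letters in this window and the call did not go together throughout. The windows of Glb1, Sumf1 and Arsa are shown for comparison with those of Naglu and Sgsh, 5′ to 3′ on the strand of the gene, with GTCACGTG in capitals. They are chr9:114401017-114401046 (plus strand), chr6:108185578-108185607 (minus strand) and chr15:89477424-89477453 (minus strand).
Glb1: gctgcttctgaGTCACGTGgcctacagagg
Sumf1: aagcaccacagGTCACGTGatctccatggg
Arsa: ttcaactcagtGTCACGTGttgtctgctcc
The motif begins 50, 13 and 18 bases before the RefSeq start in Glb1, Sumf1 and Arsa.

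Of 37 tested genes that make glycosaminoglycans, 9 were called higher and 3 lower, with a median log2 fold change of 0.04. These shares were 24.3% and 8.11%, beside 11.2% and 9.52% of all genes tested, so the share called lower was near that of all genes. B4galt7, which adds a sugar of the linker that joins the chain to its protein, rose 1.48-fold, from 11 to 16.2 RPKM (limma adjusted p = 0.00106). Chpf2, a chondroitin polymerizing factor, rose 1.41-fold, from 5.74 to 8.06 RPKM (limma adjusted p = 0.0152, but 0.0507 without PA replicate 1 and 0.0604 without PA replicate 2). Pxylp1, a phosphatase that acts on the linker, rose 1.24-fold, from 2.87 to 3.59 RPKM (limma adjusted p = 0.0375). The call of Pxylp1 ended in 7 of 16 alternative fits, among them those without BSA replicate 1, BSA replicate 3 or any PA library (adjusted p of up to 0.104). Of 14 tested genes for the proteins that carry the chains, 3 (21.4%) were called higher and 1 (7.14%) lower, with a median of -0.08. Over all genes tested the shares were 11.2% and 9.52%. Cd44, the hyaluronan receptor, rose 1.46-fold (limma adjusted p = 5.1e-05), the glypican gene Gpc1 rose 1.37-fold (limma adjusted p = 0.00128), and the syndecan gene Sdc4 rose 1.24-fold (limma adjusted p = 0.00038). Hspg2, which encodes perlecan, fell from 36 to 31.4 RPKM (limma adjusted p = 0.0389). The call of Hspg2 also ended in 7 of 16 alternative fits, among them those without BSA replicate 1, BSA replicate 2 or any PA library (adjusted p of up to 0.126).

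The genes that deliver soluble enzymes to the lysosome were called higher in 4 of 5 cases, beside 11.2% of all genes tested. Their median log2 fold change was 0.43. Igf2r, the large mannose 6-phosphate receptor, rose from 11.5 ± 0.847 to 17.4 ± 0.303 RPKM (SD, n = 3 each), by 1.51-fold (limma adjusted p = 0.00044). Nagpa, the enzyme that uncovers the mannose 6-phosphate tag, rose 1.36-fold (limma adjusted p = 0.00622), and Gnptg, a subunit of the enzyme that adds the tag, rose 1.35-fold (limma adjusted p = 0.014, but 0.0542 without PA replicate 3). Gnptab, which encodes the catalytic subunits of that enzyme, was at 11.2 and 10.9 RPKM and did not pass the test (limma adjusted p = 0.605). Among other lysosomal hydrolases, 9 of 11 tested cathepsins and peptidases and 10 of 12 enzymes of sphingolipid breakdown were called higher and none lower. These shares were 81.8% and 83.3%, beside 11.2% of all genes tested, and the medians were 0.51 and 0.37. Among the 9 enzymes chosen here, 2 of the 8 tested were called higher, with a median of 0.07. The difference between these lists was not tested.

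Among the 3 transcripts whose profile over the 6 libraries lay nearest to that of Naglu were Bbc3 and Zc3h12a, at Euclidean distances of 0.149 and 0.155 on the centred log2(RPKM + 0.1) scale. Nearest to Hgsnat were Nicn1, Vash1 and Ppp1r9a, at distances of 0.041, 0.0483 and 0.0549. These are the nearest of 11671 profiles over 6 points and are given as a description.

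The 8 tested enzymes were fitted again under other settings and with each library left out in turn. Gusb stayed between 0.25 and 0.31 on the log2 scale and was called each time. Naglu was higher in every fit, by 0.34 to 0.61, and was called in 10 of 16. Hgsnat was lower in every fit, by -0.27 to -0.16, and was called in 9 of 16. Sgsh, Arsb, Idua and Galns were called in none, with adjusted p-values of 0.0556 or more by limma.

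**Figure D3:**
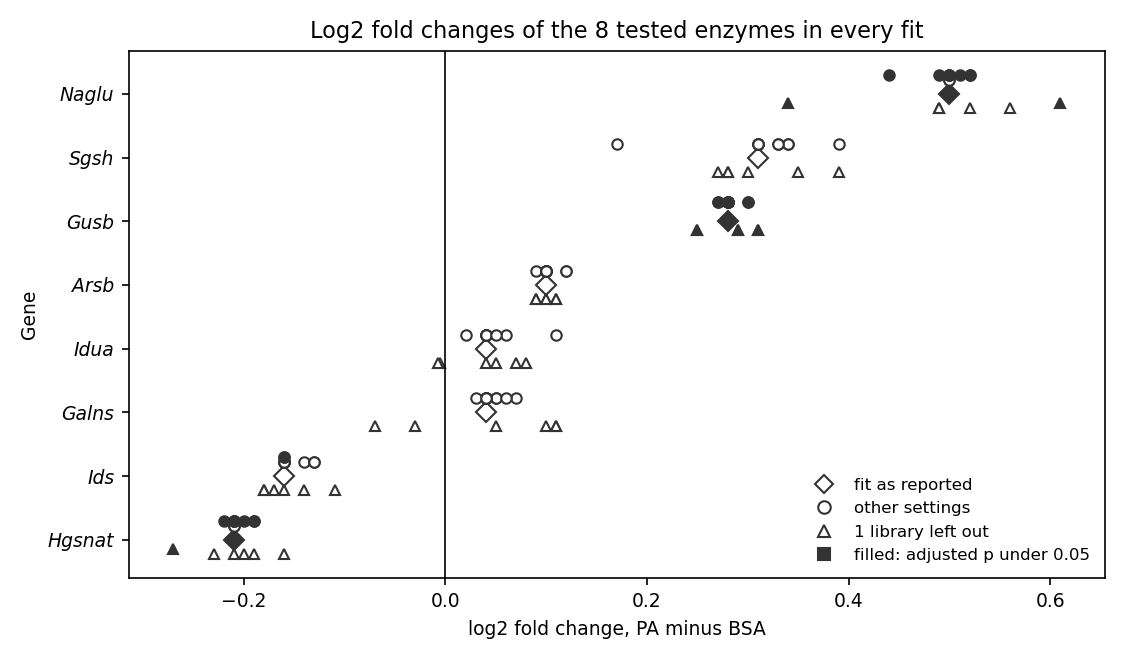
Log2 fold change, PA minus BSA, of the 8 tested enzymes in the reported fit (diamonds), under other settings (circles) and with 1 library left out (triangles); filled symbols have an adjusted p under 0.05. Naglu spans 0.34 to 0.61 and Gusb 0.25 to 0.31, both above 0, and Hgsnat spans -0.27 to -0.16, while Idua and Galns lie on both sides of 0.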

How the data were processed

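The samples were 3 BSA-treated and 3 PA-treated libraries of wild-type mouse PTECs at 6 hours, grouped by the treatment in the labels. Columns of the deposited table were assigned to samples by treatment initial and replicate number. The authors deposited RPKM values per gene and library, made from reads mapped to GRCm38 with TopHat2 2.1.1 after bcl2fastq base calls, as the submitters' processing notes and the paper's methods state. The sources used here name no read counter, gene annotation or strand option. The deposited log2 fold change and p-value columns of the authors' own comparison were not used.

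RPKM values were whole multiples of 1 read in 100% of genes (tolerance 1e-06), which gave library sizes and reads per gene. Genes with a mean of at least 0.5 RPKM (11671) were tested on log2(RPKM + 0.1) with limma 3.58.1 in R 4.3.3 (lmFit, eBayes with a variance trend, treatment as the only term), since the deposited values are RPKM, and limma voom on the recovered reads was run as an alternative. A fold change on this scale understates the change of low genes. P-values were adjusted by Benjamini-Hochberg over all genes tested, and intervals are 95%. No library pair matched within sampling noise, with a chi-square per degree of freedom of 4.65 to 7.77 for BSA pairs and 1.83 to 3 for PA pairs. Positions are from GENCODE vM21 and promoters from RefSeq. The fit was also run on simulated reads without library-wide or GC-related shifts. That run does not cover such shifts in the real libraries.

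The 9 enzymes and the other lists were chosen with earlier results of these data known. Named genes are the 9 enzymes, all tested genes of the other-breakdown list, at most 3 called genes with the largest change from each further list, genes overlapping an enzyme gene or starting near it, and the 3 nearest profiles of the called enzyme with the largest change in each direction. Some genes that the rule names are not reported here. Genes outside this rule (Gnptab, Hspg2, Cemip and the marker genes) were chosen after their values were seen. Alternatives were other pseudocounts (1 and 0.01), other filters, median-of-ratios and quantile scaling, no variance trend, the voom fit, a replicate block, removal of each library's GC trend, and each library left out.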

Additional observations from a re-analysis of the deposited data

How the results depend on the processing

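Gusb was called under all alternatives tried, and no called enzyme turned its direction. Naglu and Hgsnat lost their calls with no filter on low values (adjusted p of 0.0617 and 0.0719 by limma) and with no variance trend (0.0662 and 0.0775), which left 1 enzyme called higher and 0 lower, in place of 2 and 1. Quantile normalization and limma voom each gave 2 enzymes called lower, Ids being added. With 1 library left out, 1 to 2 enzymes were called higher and 0 to 1 lower. Over the libraries left out, Idua ran from -0.0075 to 0.08 and Galns from -0.07 to 0.11. These uncalled values turned for Idua without BSA replicate 3 (-0.0054) and without PA replicate 1 (-0.0075), and for Galns without BSA replicate 3 (-0.07) and without PA replicate 2 (-0.03). With a minimum mean of 1 RPKM Idua was not fitted. The causes were not tested.

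Of all genes, 1302 were called higher and 1111 lower. With no filter, 739 were lower. Median-of-ratios scaling gave 1485 higher and 806 lower. With 1 library left out, 818 (without PA replicate 2) to 1368 (without BSA replicate 3) were higher and 391 (without PA replicate 2) to 1653 (without BSA replicate 3) lower. Of the other-breakdown list, 8 to 9 were higher and 0 to 1 lower with 1 library left out. With the GC trend removed 0 were lower, because Tmem2 had no GC value. Of the synthesis genes, 4 were higher and 1 lower with no filter (9 and 3 as reported), 5 lower with voom, and 3 to 7 higher and 0 to 7 lower with 1 library left out. With the replicate number as a block, 1333 of all genes were higher and 1242 lower, and the enzymes' calls stayed at 2 and 1. Deviations of libraries with the same number correlated by 0.0348, -0.0356 and 0.0942. BSA replicate 1 correlated best with PA replicate 2 (0.0736), and BSA replicate 3 with PA replicate 3 (0.0942). Values this near 0 cannot show whether libraries of the same number were prepared together.

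With 3 libraries per group and 65 to 101 reads per library, Sgsh and Idua have wide intervals, and Hyal1, with 4 to 15 reads, bears no comparison. Transcript levels say nothing of enzyme activity or protein.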
